A study of Mus musculus with 2 samples.

Results

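The genes described here move zinc, iron and copper in and out of cells, store them or sense them, and they were measured in mouse primary hepatocytes given control siRNA or G0s2 siRNA. They were taken by name from the microarray: every numbered gene of the Slc30a and Slc39a zinc transporter families, and 16 listed symbols for metallothioneins, copper transport and the iron cycle. The names found 39 genes of 23602 named genes on the array, with 50 probes printed on 59 spots. They comprise 10 Slc30a genes, 14 Slc39a genes and 15 of the 16 listed symbols. The remaining symbol, Tfr2, is printed on this array under its old name Trfr2, so it falls outside the 39 and is given separately.

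The study compared hepatocytes in which G0s2, an inhibitor of the lipase that starts triglyceride breakdown, was targeted by siRNA with cells given a control siRNA. Each group was 1 array of RNA from primary hepatocytes kept in medium with 10% serum, transfected with 50 pmol of the siRNA using Lipofectamine 2000 and measured after 24 h. From each, 0.5 ug of RNA was labelled with Cy3. The strain, age, sex and number of the mice are not in the labels. No group had a replicate, so no test was run and no p-value is given. Every difference below compares these arrays, and the ± value is the scanner's own signal error carried to the log2 scale, which leaves out variation between cultures and labellings. In such bulk RNA, fewer cells of a type and less RNA per cell cannot be told apart.

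Liver cells hold much of the body's iron, make most of the plasma iron and copper carriers and take up zinc in inflammation. Slc39a (ZIP) proteins bring zinc into the cytosol and Slc30a (ZnT) proteins move it out of the cytosol, into vesicles or across the plasma membrane. Metallothioneins bind zinc and copper and are induced by metal through the factor MTF1, which binds metal response elements in promoters. Iron bound to transferrin enters through the transferrin receptor, is stored in ferritin and leaves through ferroportin, the product of Slc40a1. The hormone hepcidin (Hamp), made by hepatocytes, removes ferroportin from the membrane. Iron regulatory proteins bind ferritin, ferroportin and transferrin receptor transcripts when iron is low.

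The control array had signal well above background at 54.1% of probes and the G0s2 siRNA array at 58.2%, and no spot was saturated. At the 75th percentile the control array read 418 and the G0s2 siRNA array 728, so a level here is a log2 signal minus the 75th percentile of its own array. All levels below are on this log2 scale and all differences are G0s2 siRNA minus control siRNA. Both arrays lay on the same slide, where slide position and siRNA cannot be told apart. The targeted gene, G0s2, had a level of -0.13 with control siRNA and -2.83 with G0s2 siRNA, a difference of -2.70 ± 0.21 or 6.50-fold lower. All 10 hepatocyte markers (Alb, Ttr and others) were well above background on both arrays, and their summed scaled signal was 1286 and 1526. Their median difference was 0.40, and 2 of them, Hnf4a and Tdo2, were at least 2-fold higher and 0 lower. Of all genes, 4.95% were at least 2-fold higher and 5.62% lower. Macrophage and Kupffer cell markers were also present, 7 of 7, with summed signals of 4.54 and 4.74. Cholangiocyte markers were well above background in 4 of 5, not Epcam. All 4 differences were below 0, from -1.29 for Cldn7 to -0.87 for Krt7, and 2 were at least 2-fold lower. Their summed signals were 4.38 and 2.01, and their part in the results was not tested. Only 2 of 6 stellate cell and fibroblast markers and 1 of 5 leukocyte markers with a probe were well above background. Des, Lrat, Reln and Pdgfrb were not. The leukocyte marker was Cd3e, with levels of 0.91 and -0.10 and a difference of -1.01, at least 2-fold lower. The part of Cd3e in the results was not tested.

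A gene was counted as higher or lower at a 2-fold difference or more. By that rule, 5 of the 32 metal genes with a measured difference were higher with G0s2 siRNA and 1 was lower. Of all 14980 genes with a difference, 4.95% were higher by that rule and 5.62% lower. The higher genes were the zinc transporters Slc30a7, Slc30a9, Slc39a8 and Slc39a6 and the transferrin receptor gene Tfrc. The lower gene was Slc40a1. The other 26 lay inside the 2-fold bounds, with 15 of the 32 differences above 0 and 17 below. The median over the 31 genes measured on both arrays was -0.02, beside -0.06 for all genes so measured. Differences of under 0.5 in either direction were found for 68.8% of the metal genes and 66.4% of all genes.

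At the other bounds tried, 6 of 32 were at least 1.5-fold higher, where 12.8% of all genes were, and 3 were at least 1.5-fold lower, where 15.0% were. At 3-fold, 1 metal gene was higher and 0 were lower, with 1.17% and 1.58% of all genes. A difference of over 2 times the scanner error was seen upward in 8 of 31 metal genes and downward in 3, against 17.0% and 21.0% of 14121 genes measured on both arrays. The other 20 of the 31 lay within 2 times the scanner error.

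**Figure D1:**
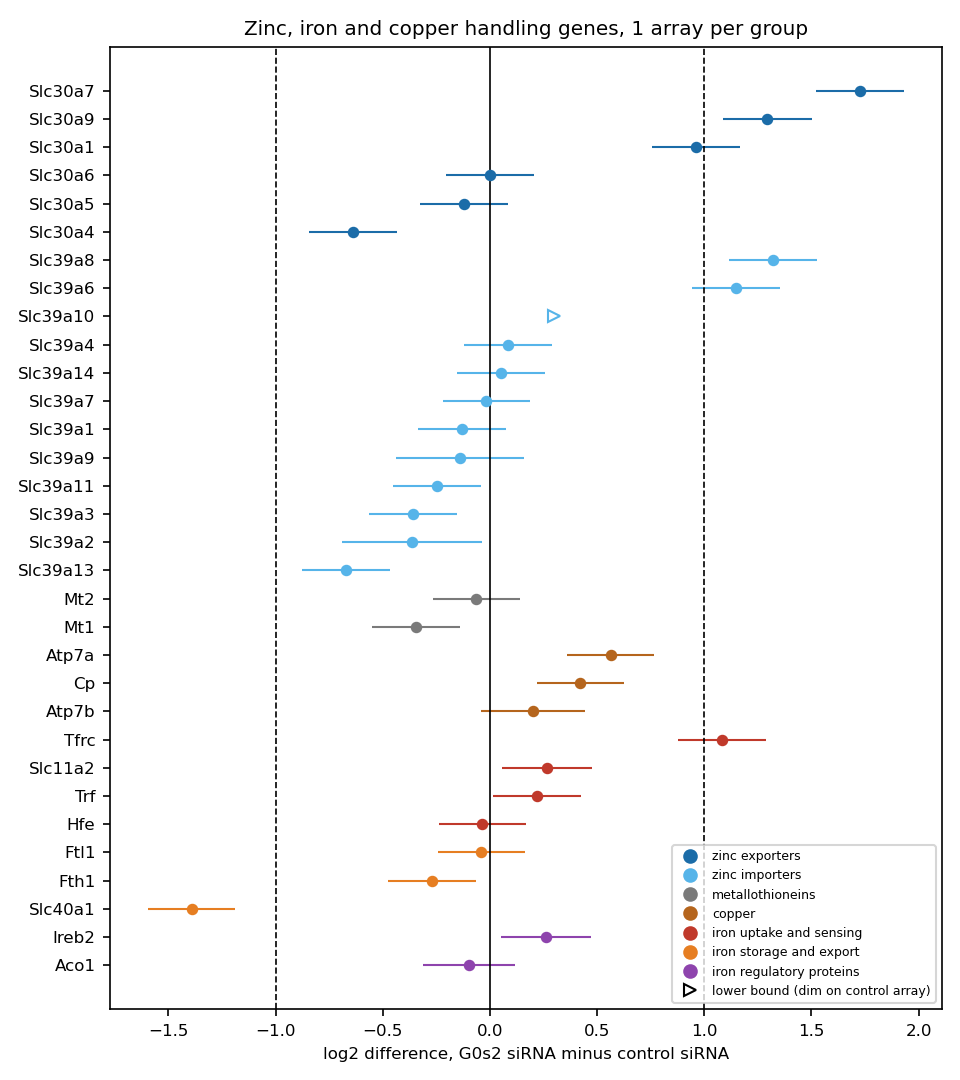
Log2 difference (G0s2 siRNA minus control siRNA, relative to each array's 75th percentile) for the 32 metal genes with a value, by role; points are single arrays' differences, bars the scanner error and dashed lines the 2-fold bounds. Slc30a7, Slc30a9, Slc39a8, Slc39a6 and Tfrc lie above the upper line and Slc40a1 lies below the lower one, while Slc30a1 sits just inside at 0.96; with centring on spike-in controls Slc40a1 moves to 0.0231.

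Sequences are shown first for the genes whose values the account turns on. Tfrc and Slc30a9 are each read by several 60-base probes, and 3 of these, each free of stop codons in at least 1 frame, are printed because they read the same transcripts at other places than the brightest probe, with differences that are set beside it in the results. The number after each gene is the probe's position in the transcript. On mm9, the first covers chr16:32620470-32620529, the second has its ends at chr16:32624877-32625093 and so spans an exon junction, and the third covers chr5:67737373-67737432, all on the plus strand.
Tfrc 1228: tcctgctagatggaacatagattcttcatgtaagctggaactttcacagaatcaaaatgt
Tfrc 1732: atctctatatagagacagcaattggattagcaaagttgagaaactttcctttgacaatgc
Slc30a9 1287: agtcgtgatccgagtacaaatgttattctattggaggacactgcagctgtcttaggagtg

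The promoters of Mt1, Mt2 and Slc30a1, textbook targets of MTF1, are printed to show the metal response element core beside the arrays' values for these genes. Each run is the 250 bases before the RefSeq start site on GRCm38.p6, plus strand, and capitals mark the core, TGCACNC or TGCGCNC, on either strand. The Mt1 run is chr8:94178839-94179088, the Mt2 run chr8:94172368-94172617 and the Slc30a1 run chr1:191906531-191906780.
Mt1: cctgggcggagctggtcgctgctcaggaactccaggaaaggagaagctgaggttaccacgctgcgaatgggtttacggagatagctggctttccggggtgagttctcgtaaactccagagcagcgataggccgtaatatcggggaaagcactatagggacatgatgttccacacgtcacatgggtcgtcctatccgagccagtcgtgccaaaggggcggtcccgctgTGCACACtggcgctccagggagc
Mt2: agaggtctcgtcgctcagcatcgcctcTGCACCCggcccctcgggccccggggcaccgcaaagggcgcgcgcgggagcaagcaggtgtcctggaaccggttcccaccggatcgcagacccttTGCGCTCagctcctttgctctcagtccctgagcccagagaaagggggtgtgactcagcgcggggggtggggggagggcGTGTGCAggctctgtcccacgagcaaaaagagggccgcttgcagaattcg
Slc30a1: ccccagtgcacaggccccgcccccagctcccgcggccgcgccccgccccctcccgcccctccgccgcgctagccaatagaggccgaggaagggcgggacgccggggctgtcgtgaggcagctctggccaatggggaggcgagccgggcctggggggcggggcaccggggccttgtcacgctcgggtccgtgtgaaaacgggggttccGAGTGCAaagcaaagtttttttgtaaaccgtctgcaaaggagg

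The search covered 300 bases per start site, 250 before it and 50 after it, on both strands. The cores do not overlap each other. Over that window Mt2 had 4 matches, Mt1 had 3 and Slc30a1 had 2, of which 3, 1 and 1 lie in the printed runs. The other Mt1 matches begin 2 and 20 bases after the RefSeq start site. The start sites used in hepatocytes were not checked, so the printed runs may leave out elements that act there. As many as in Mt2 were found in 0.588% of 27025 genes, and as many as in Mt1 in 2.27%. Of 31 metal genes with a promoter sequence, 17 (54.8%) had a match, beside 28.2% of all genes, and 8 (25.8%) had 2 or more, beside 8.07%. The 31 include the textbook targets Mt1, Mt2 and Slc30a1, and base composition was not matched, so these shares are a description only. Among the genes at least 2-fold higher, Tfrc had 2 matches, Slc39a8 had 1, and Slc30a7 and Slc30a9 had 0 in this window. A gene with several start sites took its highest count, and the other window of Tfrc and that of Slc39a8 had 0. Slc39a6 and the lower gene Slc40a1 had no promoter sequence here. Slc30a4, whose scaled level was lower by less than 2-fold, had 3. A match describes letters in a window and is no measure of binding.

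Zinc exporters held the highest difference of all the metal genes. Of 10 Slc30a genes, 6 were measured on both arrays, of which 2 were at least 2-fold higher and 0 lower. Over all genes, 4.95% were higher and 5.62% lower. Slc30a7 (ZnT7), which loads zinc into the early secretory pathway, gave a signal of 209 with control siRNA and 1204 with G0s2 siRNA, with levels of -1.00 and 0.73. The difference was 1.73 ± 0.21, or 3.31-fold higher. That value comes from the probe at position 1309, mm9 chr3:115649542-115649601 on the minus strand. The other probes of Slc30a7, at positions 5354 and 5849, gave 0.30 ± 0.25 and 0.35 ± 0.28, so neither of these reached 2-fold. These probes were dimmer, with control and G0s2 siRNA signals of 36.9 and 79.2 at 5354 and of 26.5 and 58.6 at 5849. The gap between the brightest probes of Slc30a7 was 1.42, and gaps of over 1 were found in 7.02% of 3375 genes with several measured probes.

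Slc30a9 (ZnT9), a mitochondrial zinc exporter, had a signal of 195 with control siRNA and 834 with G0s2 siRNA. Its levels were -1.10 and 0.20 and its difference 1.29 ± 0.21, or 2.45-fold higher, from the probe at position 2239, mm9 chr5:67746213-67746272. The probe at position 1287 printed above had levels of -1.97 and -1.62 and a difference of 0.35 ± 0.21. Both Slc30a9 probes were higher on the G0s2 siRNA array, and only the probe at position 2239 passed 2-fold. Across the array, 126 genes with several probes were at least 2-fold higher by their brightest probe, and 63 of these were so by the next brightest too.

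Slc30a1 (ZnT1), the plasma membrane exporter induced by zinc, lay just under the bound. Its signal was 221 with control siRNA and 748 with G0s2 siRNA, with levels of -0.92 and 0.04 and a difference of 0.96 ± 0.21, or 1.95-fold. When each array was centred on its median detected probe, Slc30a1 passed 2-fold at 1.31. It is read by 1 probe, mm9 chr1:193736760-193736819. Slc30a5 and Slc30a6, the partners that form a complex in the early secretory pathway, had differences of -0.12 and -0.00, each below the scanner error. Slc30a4 had the lowest value of the group, with levels of 2.73 and 2.09 and a difference of -0.64 ± 0.20 (1.56-fold lower). Slc30a2, Slc30a3, Slc30a8 and Slc30a10 were not well above background on either array.

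Of 14 zinc importers of the Slc39a family, 12 had a difference, of which 2 were at least 2-fold higher and 0 were lower. The shares over all genes were, as above, 4.95% higher and 5.62% lower. Slc39a8 (ZIP8), which carries zinc, manganese and iron across the plasma membrane, had a signal of 166 with control siRNA and 721 with G0s2 siRNA. Its levels were -1.33 and -0.01, and the difference was 1.32 ± 0.21, or 2.50-fold higher, at mm9 chr3:135551169-135551228. Slc39a6 (ZIP6), a plasma membrane importer, had signals of 518 and 1996, levels of 0.31 and 1.46 and a difference of 1.15 ± 0.20, or 2.22-fold higher. Both are read by 1 probe each. With normexp background correction Slc39a8 was at 0.74 and no longer passed 2-fold.

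A further 4 importers had differences near 0. Slc39a14 (ZIP14), the liver's importer of zinc and of iron not bound to transferrin, had levels of 0.87 and 0.92 and a difference of 0.05 ± 0.20. Slc39a4 (ZIP4), whose loss causes acrodermatitis enteropathica, had levels of 6.47 and 6.55 and a difference of 0.08. Slc39a7 (ZIP7), which releases zinc from the endoplasmic reticulum, differed by -0.02, and Slc39a1 (ZIP1) by -0.13. All 4 lay within the scanner error of 0.20.

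Among the remaining importers, Slc39a13, a Golgi and vesicle transporter, had the lowest value, with levels of 0.83 and 0.15 and a difference of -0.67 ± 0.20 (1.59-fold lower). Slc39a3 differed by -0.36, Slc39a2 by -0.36 ± 0.33, Slc39a11 by -0.25 and Slc39a9 by -0.14 ± 0.30. Slc39a10 was not well above background on the control array and had a signal of 30.6 on the G0s2 siRNA array. Set against the lowest signal well above background there, it was at least 1.23-fold higher, a bound that is not evidence of a change since it was measured only where it was brighter. Slc39a5 and Slc39a12 were not well above background on either array.

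**Figure D2:**
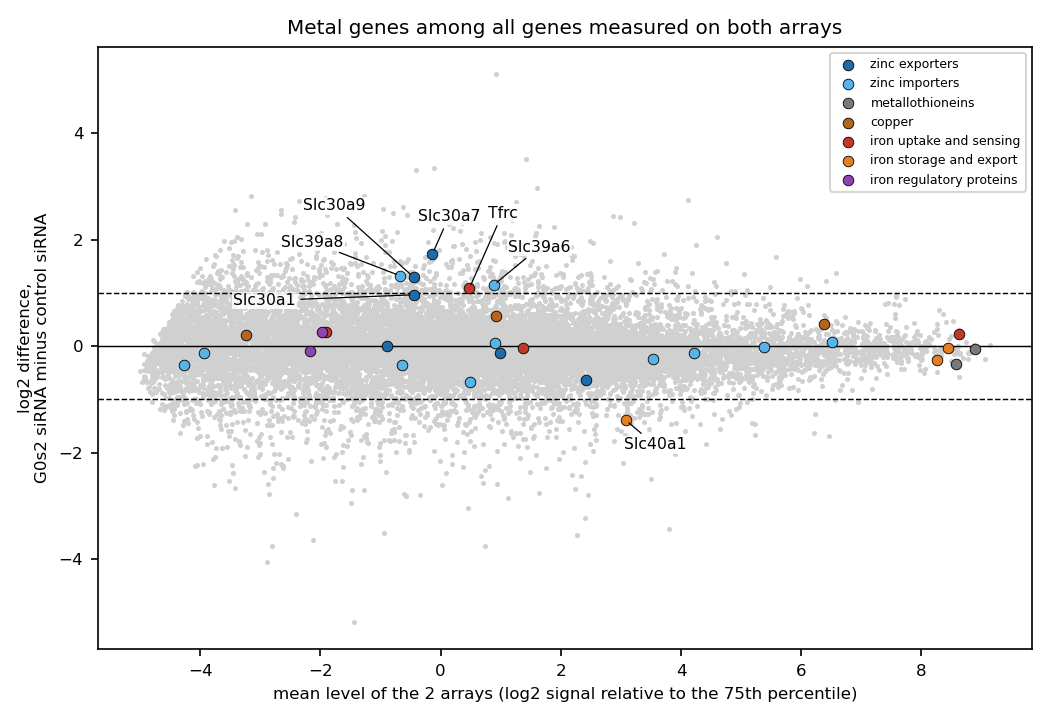
Difference (G0s2 siRNA minus control siRNA, log2) against the mean level of both arrays (log2 signal relative to the 75th percentile) for all genes measured on both arrays in grey and the metal genes coloured by role; dashed lines mark 2-fold. The 5 higher metal genes lie near the middle of the level range, where the spread of all genes is also wider than at the right, and Slc40a1 lies lower among bright genes; with centring on spike-in controls it moves to 0.0231.

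The spread of all genes narrows as signal rises, so the counts were also set out in 5 equal bins of the mean level. In the middle bin, with levels from -0.51 to 1.15, 5.35% of 2825 genes were at least 2-fold higher and 5.35% lower. That bin held 9 metal genes, of which Slc30a7, Slc30a9, Slc39a6 and Tfrc were higher and 0 were lower, with a median of 0.96. In the next bin down, 6.55% of genes were higher and 1 of 6 metal genes, Slc39a8, was. In the brightest bin, 1.63% of genes were higher and 2.90% lower, with 0 and 1 of 11 metal genes. The remaining 2 bins held 5 metal genes, none of them past the bound.

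Metallothioneins, the cell's zinc and copper buffers, differed by less than 2-fold. Mt1 had levels of 8.76 and 8.41 and a difference of -0.35 ± 0.20, and Mt2 had levels of 8.92 and 8.86 and a difference of -0.06 ± 0.20. Their signals were 180841 and 247487 for Mt1 and 202439 and 337050 for Mt2, with no spot saturated. With each array's median detected probe as the centre instead, Mt1 was at -0.00 and Mt2 at 0.28, and with spike-in centring both were past 2-fold higher, at 1.07 and 1.35. A further probe, listed under an Ensembl transcript of the metallothionein 1 gene and so outside the 39 names, had levels of 1.35 and 2.09 and a difference of 0.74 ± 0.20; it was chosen after its value was seen. Mtf1, the gene of the metal-sensing factor, had levels of -0.26 and 0.01 and a difference of 0.27 ± 0.20, and its other measured probe gave -0.00.

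Of the copper genes taken by name, those measured differed less than 2-fold. The copper importer gene Slc31a1, outside them, passed 2-fold and is given further on. Atp7a, the copper pump of most tissues other than liver, had levels of 0.64 and 1.20 and a difference of 0.56 ± 0.20. Atp7b, the liver's copper pump, defective in Wilson disease, had levels of -3.35 and -3.15 and a difference of 0.20 ± 0.24, within its error. Cp, which encodes the copper ferroxidase ceruloplasmin, had levels of 6.18 and 6.60 and a difference of 0.42 ± 0.20. A second Cp probe, at position 4465 of another listed transcript, had signals of 16.4 and 23.9 and gave -0.26 ± 0.41. Heph, the ferroxidase of the intestine, was not well above background with any of its 3 probes.

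Among the iron uptake genes the transferrin receptor passed 2-fold and its ligand did not. Tfrc, which encodes transferrin receptor 1, had a signal of 400.0 with control siRNA and 1473 with G0s2 siRNA, with levels of -0.06 and 1.02 and a difference of 1.08 ± 0.20 (2.12-fold higher). Its brightest probe, at position 4288 and mm9 chr16:32632255-32632314, was printed on 10 spots per array, of which 9 had no outlier flag. On the control array those 9 spots ran from -0.14 through a median of -0.07 to 0.01, with an SD of 0.0455. On the G0s2 siRNA array they ran from 0.89 through 1.03 to 1.11, with an SD of 0.0635. Every spot on the G0s2 siRNA array was above every spot on the control array. How often the spots of other probes separate in this way was not counted, so this does not set Tfrc apart. Spots of 1 array share the RNA and labelling, so their spread is that of the print and the scan only.

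The difference at each Tfrc spot ran from 0.96 to 1.20, with an SD of 0.0765 over the 9 spots. Over 247 probes with 5 or more spots, the median of that SD was 0.0651. The Tfrc probe at position 1228 gave 0.99 ± 0.21, just under 2-fold, and the probe across the exon junction at position 1732 gave 0.66 ± 0.27. The probe at 1732 was dim, with signals of 30.2 with control siRNA and 83.3 with G0s2 siRNA. All 3 Tfrc probes were thus higher on the G0s2 siRNA array, and 1 of them reached 2-fold. With normexp background correction the brightest probe was at 1.00, just under the bound. Tfrc is also known to be high in dividing cells: the proliferation markers Mki67, Top2a, Ccnb2 and Bub1 were 4 of 4 higher, by 1.43 to 2.29, with summed scaled signals of 1.75 and 5.48. Their part in the Tfrc difference was not tested. Erythroid cells also carry much of the receptor: of 4 erythroid markers with a probe, 3 were above background on an array and Epb4.2 was not. Alas2 differed by -0.82 and Slc4a1 by 0.08, and Hba-a1, dim on the control array, had a bound of at least 0.32 higher, with a summed signal of 0.626 and 0.406. Their part was not tested either.

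**Figure D3:**
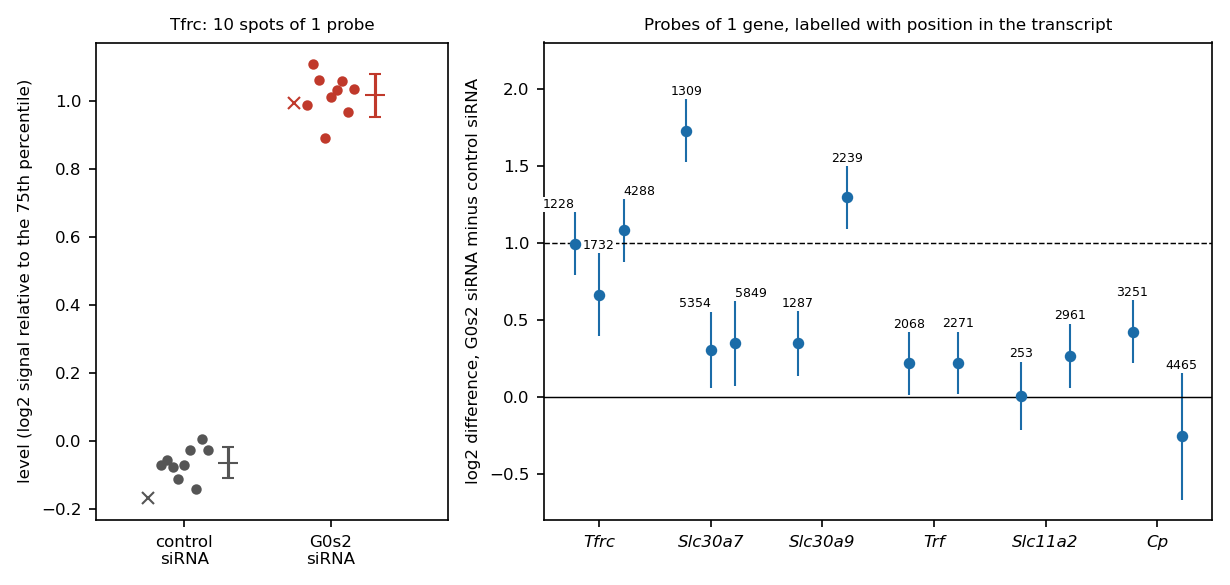
Left, level (log2 signal relative to the 75th percentile) of each of the 10 spots of the brightest Tfrc probe on each array, with crosses for the spot with an outlier flag and bars for the mean ± SD of the other 9; right, log2 difference with scanner error for every measured probe of the 6 genes with several, labelled with position in the transcript. Tfrc spots do not overlap between the arrays, and their spread is that of the print and the scan only. The Slc30a7 probe at position 1309, at 1.73, differs by more than the errors from its dimmer probes at 5354 and 5849, at 0.30 and 0.35.

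Transferrin itself, encoded by Trf, had levels of 8.51 and 8.73 and a difference of 0.22 ± 0.20, and its second probe also gave 0.22. Slc11a2 (DMT1), which moves iron out of endosomes, had levels of -2.05 and -1.78 and a difference of 0.26 ± 0.21, with 0.00 from its other probe. Hfe, which binds transferrin receptor 1 and signals to hepcidin, differed by -0.04. Tfr2, the hepatocyte's sensor of transferrin-bound iron, had signals of 3847 and 7531, levels of 3.20 and 3.37 and a difference of 0.17 ± 0.20. Of these genes, none differed by 2-fold.

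The iron storage genes lay inside the 2-fold bounds and the exporter was lower. Slc40a1, which encodes ferroportin, the only known cellular iron exporter, had a signal of 5723 with control siRNA and 3793 with G0s2 siRNA. Its levels were 3.77 and 2.38 and its difference was -1.39 ± 0.20, or 2.62-fold lower, at mm9 chr1:45965255-45965314 on the minus strand, position 2980 of the transcript. Of the 31 metal genes measured on both arrays, it was the only one with less raw signal on the G0s2 siRNA array, which was the brighter array as a whole. The share of all genes with less raw signal on that array was not counted. With the arrays centred on spike-in controls the difference of Slc40a1 was 0.0231, so its direction rests on centring by the bulk of the probes. Macrophages, including Kupffer cells, also express Slc40a1: 0 of 7 of their markers passed 2-fold, with differences from -0.50 for Csf1r and -0.33 for Clec4f to 0.67 for Adgre1 and a median of 0.35. Their part in the Slc40a1 difference was not tested.

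Fth1, which encodes the ferritin heavy chain, had levels of 8.40 and 8.13 and a difference of -0.27 ± 0.20. Ftl1, the ferritin light chain, had levels of 8.46 and 8.42 and a difference of -0.04 ± 0.20. The Ftl1 probe is also listed under near-identical gene copies, so its signal cannot be assigned to 1 of them. The iron regulatory protein genes Aco1 and Ireb2 had differences of -0.10 ± 0.21 and 0.26 ± 0.21.

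Hepcidin control, copper delivery, heme and mitochondrial iron were covered by 64 further genes outside the 39. Of the 56 measured on both arrays, 3 were at least 2-fold higher, 3 were lower and 50 were neither, with a median of -0.07. The shares over all genes were, as above, 4.95% higher and 5.62% lower. Of 13 systemic iron control genes, 1 was higher and 3 were lower. Of 13 copper delivery genes 1 was higher, of 7 cell iron genes 1 was higher, and of 6 mitochondrial iron genes, 12 heme genes and 5 zinc and metal response genes 0 passed the bound.

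The 3 lower systemic iron genes were Id1, Bmp6 and Hamp, which as background belong to BMP signalling to hepcidin. Of the same signalling, Bmpr1a, Acvr1 and the measured SMAD genes lay inside the 2-fold bounds, from -0.43 for Acvr1 to 0.42 for Smad7. Second probes gave 0.89 for Smad4, 0.54 for Acvr1, 0.35 for Smad1 and -0.32 for Smad5. Id1, a direct BMP target, had levels of -0.02 and -2.96 and a difference of -2.94 ± 0.21. Bmp6, the ligand by which iron loading signals to hepatocytes, had signals of 130 and 55.7, levels of -1.69 and -3.71 and a difference of -2.02 ± 0.23. Hamp, which encodes hepcidin, had signals of 431 and 374, levels of 0.04 and -0.96 and a difference of -1.00 ± 0.20, at the bound itself. Under spike-in centring Hamp was at 0.41, so its direction flipped, while Id1 and Bmp6 stayed lower at -1.53 and -0.60. In liver Bmp6 is made largely by endothelial cells: 5 of 6 endothelial markers were well above background, 1 higher and 0 lower, and Tek was not. Pecam1 differed by 0.77, Cdh5 by 1.01 and Lyve1 by 0.89, and Stab2 by -0.18 and Kdr by -0.51, with a median of 0.77. Their summed scaled signal was 9.33 and 6.83, most of it from Kdr. The markers' part in the Bmp6 difference was not tested.

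Hjv, the BMP co-receptor hemojuvelin, listed on the array as Hfe2, had signals of 205 and 819 and a difference of 1.20 ± 0.21, so it was higher. With normexp background correction Hjv was at 0.95, just under the bound. Tmprss6, the protease that cleaves hemojuvelin, differed by -0.57, inside the bound. The related Hamp2 had a difference of 0.34 ± 0.30.

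Among the copper and cell iron genes, Slc31a1 (CTR1), the high-affinity copper importer, was the highest of the further genes. Its signal was 449 with control siRNA and 2372 with G0s2 siRNA, with levels of 0.10 and 1.70 and a difference of 1.60 ± 0.20. Fbxl5, which marks IRP2 for degradation when iron is replete, had levels of -1.26 and -0.13 and a difference of 1.13 ± 0.21. With normexp Fbxl5 was at 0.85 and no longer passed 2-fold. Hmox1, which breaks down heme and releases iron, had -0.11 ± 0.20 with its brightest probe and 0.77 with its other.

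**Figure D4:**
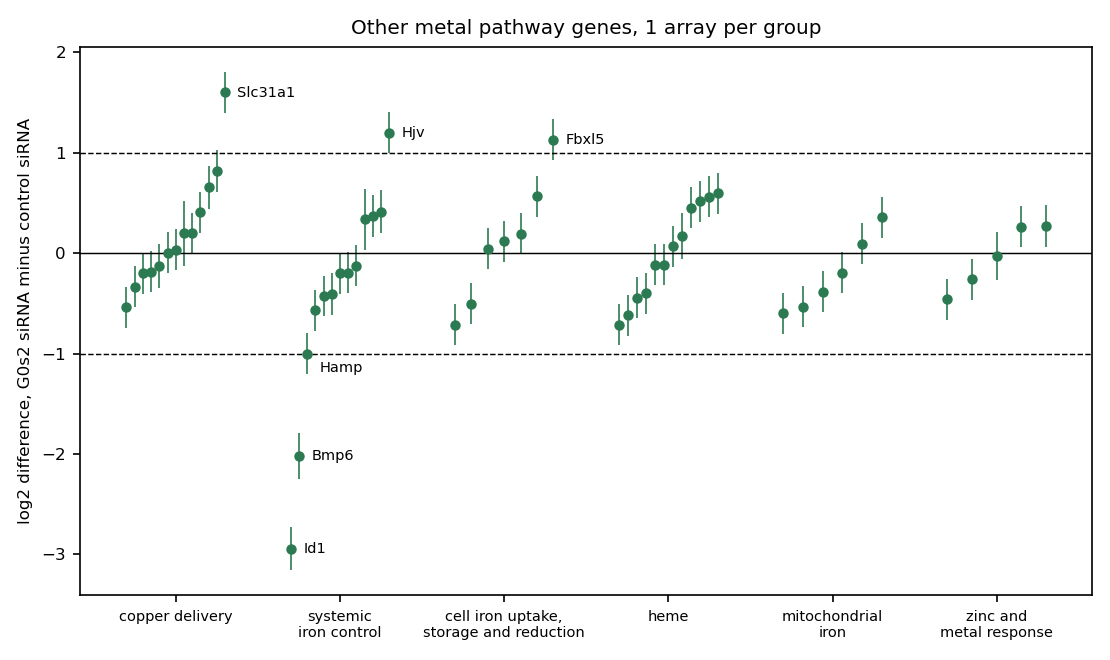
Log2 difference (G0s2 siRNA minus control siRNA, relative to each array's 75th percentile) of the 56 further metal pathway genes, grouped by role, with 1 point per gene, bars for the scanner error and dashed lines at the 2-fold bounds. Slc31a1 is highest at 1.60, and Id1, Bmp6 and Hamp lie at or below the lower line; under spike-in centring Hamp moves above 0.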

How the data were processed

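RNA from mouse primary hepatocytes was read on 1-colour Agilent arrays, 1 per siRNA group, assigned from the labels. The deposited scanner tables hold linear spot intensity after the scanner's background correction, made with Agilent Feature Extraction 10.7.1.1, per the file headers; probe coordinates are on mm9, per the file headers. The authors' series table holds intensity normalized to a common distribution by a method not given in the sources used here, and it was used only as an alternative.

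Flagged outlier and control spots were left out, spots of a probe were averaged, and 39424 of 39429 probes were kept. Values are log2 intensity minus the array's 75th percentile. RefSeq names of GRCm38.p6 were given to 26408 probes by accession, 3854 by symbol and 734 by synonym, and 8428 had none. The 39 genes were taken by the array's own names; members, lists and the rule for named genes were chosen with earlier results of these data known. That rule allows every member, the fixed pathway genes Mtf1, Hamp, Slc31a1 and Hmox1, pathway genes past 2-fold or at the extremes, and G0s2. A few others (Hjv's neighbours Tmprss6 and Hamp2, and Bmpr1a, Acvr1 and the SMAD genes) were chosen after their values were seen. Some genes of the pathway and marker lists are not reported here and are in no count of those lists.

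A gene takes the brightest of its probes that were detected (well above background) on 1 array or both. A gene dim on 1 array has a bound, against the higher of that array's lowest signal well above background and its own. No fit or test was made with 1 array per group, and the number of arrays limits the precision. Alternatives were normexp background correction with offset 50, other centrings, quantile and loess normalization, other probe rules and fold rules, and the authors' values. Promoter sequences are from RefSeq (GRCm38.p6) and were matched for 31 of the 39. Python 3.11.15, pandas 2.3.3, R 4.3.3 and limma 3.58.1 were used, and the calculation was tested on simulated data.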

Additional observations from a re-analysis of the deposited data

How the results depend on the processing

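Slc39a6 was at least 2-fold higher and Slc40a1 at least 2-fold lower under quantile and loess normalization and the authors' values. The same held under normexp and under centring on the median above background. Each has 1 probe, well above background on both arrays, so no probe rule or filter on dim probes bears on them. Centring on that median added 0.34 to the differences of genes in general and spike-in centring 1.42. Under spike-in centring Slc40a1 was at 0.0231 and Hamp at 0.41, each reversed in sign, and the 8 spike-in probes themselves differed by -0.98 to -0.06 in raw signal; the cause was not tested. The 5 higher metal genes became 3 with normexp (without Slc39a8 and Tfrc), 6 with median centring (with Slc30a1), 29 with spike-in centring, 2 with the mean over probes or the next brightest probe (without Slc30a7, Slc30a9 and Tfrc), 1 at 3-fold and 8 at over 2 times the scanner error. The 1 lower gene became 0 with spike-in centring, 3 at 1.5-fold, 0 at 3-fold and 3 by scanner error. The 3 higher further pathway genes became 1 with normexp, 5 with median centring, 42 with spike-in centring, 6 at 1.5-fold, 1 at 3-fold and 10 by scanner error. The 3 lower became 1 with spike-in centring, 5 without a filter on dim probes, 7 at 1.5-fold and 14 by scanner error; normexp and median centring each gave 2, without Hamp. The medians became 0.33 (metal genes) and 0.27 (further genes) with median centring, and 1.40 and 1.35 with spike-in centring. Of 377 values of single genes measured on both arrays under the alternatives, 272 moved by less than the scanner error of that gene and 105 by at least that error. The 272 include values that could not move, so they are no measure of stability. Either filter on dim probes returns the same value for a gene measured on both arrays. So does the mean over probes for a gene with 1 measured probe. Without any filter on dim probes, Slc30a2 and Slc39a10 also passed 2-fold. Leaving out a replicate was not possible. No paired analysis was possible because each group has 1 array. Of the metal genes, 7 not well above background on either array have no difference. Normexp turned the sign of 8 small differences, dim and bright genes alike: Atp7b, Slc11a2 and Ireb2 came to -0.13, -0.10 and -0.02, and Slc39a1, Slc39a7, Ftl1, Hfe and Slc30a5 to 0.06, 0.14, 0.10, 0.07 and 0.02.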

Other observations

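The array also carries probes listed under copies of the ferritin light chain gene, chosen here after their values were seen. Ftl2 had levels of 7.64 and 7.55 on the control and G0s2 siRNA arrays, a difference of -0.08 ± 0.20. The probes listed as Gm5213, LOC434624 and Gm12164 had differences of -0.10, -0.01 and 0.00 beside -0.04 for Ftl1, each within the scanner error of 0.20. Sequence shared between the copies keeps these readings from being independent.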
